A study of Mus musculus with 6 samples.

Results

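Adrenergic and muscarinic receptors set the rate and force of the heartbeat, and 9 genes of this signalling system were followed here in cardiomyocyte (CM) nuclei of young mouse hearts. They encode 4 receptors (Adrb1, Adra1a, Adra1b, Chrm2), 1 G protein alpha subunit gene (Gnas), 2 adenylyl cyclases (Adcy5, Adcy6) and 2 phosphodiesterases (Pde3a, Pde4d). They were taken by name from the 54532 genes of the count table, and 8 of the 9 passed the expression filter that left 13323 genes to test. All were measured in 6 libraries of poly-A nuclear RNA. Wild-type ICR mice were injected under the skin at P6 with 1e+11 viral genomes of AAV9, hearts were taken at P9, and CM nuclei were enriched by pulldown of PCM1, a protein of the CM nuclear envelope. The virus carried GFP, YAP6SA or YAP5SA under the cardiac troponin T promoter (cTnT), which directs expression to CMs. YAP5SA is a YAP that LATS kinases cannot inhibit, and YAP6SA has a further serine-to-alanine substitution and, by the study's account, does not bind TEAD factors. The labels give 2 hearts and 2 libraries for each of GFP, YAP6SA and YAP5SA, and the sources used here do not state whether a library is 1 heart or a pool. The labels place replicate 1 in batch 1 and replicate 2 in batch 2. Every p-value therefore rests on only 2 libraries a group. In the main test the spread was fitted over all 6 libraries after group and batch. It was also drawn towards the spread of the other genes tested.

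Noradrenaline and adrenaline act on the beta-1 receptor, which couples through Gs to adenylyl cyclase and so to cAMP and protein kinase A, the route by which sympathetic drive speeds and strengthens contraction. Acetylcholine acts on the M2 receptor, which couples to Gi, lowers cyclase activity and opens a potassium channel that slows pacemaking. Alpha-1 receptors couple to Gq and phospholipase C, and phosphodiesterases end the signal by breaking down cAMP.

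Transcripts of the beta-1 receptor and of both cardiac cyclases were lower in YAP5SA than in GFP. No member passed the test between YAP6SA and GFP, which called 0.045% of all tested genes higher and 0% lower. Between YAP5SA and GFP, Adcy6 fell by 51.8%, Adcy5 fell by 43.6% and Adrb1 fell by 38.1% (edgeR quasi-likelihood test, adjusted p = 0.00408, 0.029 and 0.0173). In the same comparison Chrm2, the M2 receptor, stood 1.59-fold above GFP with an adjusted p of 0.0539, just outside the threshold of 0.05. Without GFP replicate 2 each call against GFP was lost, with log2 fold changes of -0.94 for Adcy6, -0.47 for Adcy5 and -0.76 for Adrb1. Between YAP5SA and YAP6SA the same 3 genes fell, and Pde3a fell too. Adcy1, a cyclase best known from brain and sinus node that is no member, rose 22.0-fold in YAP5SA.

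The libraries held 14552847 to 19615627 counts in genes. The endogenous Yap1 gene had 1828 to 2647 counts per library and did not separate the groups, and whether reads of the YAP transgenes reach this gene was not tested. All 8 CM markers (Tnnt2, Actn2, Myh6, Ttn, Ryr2, Tnni3, Myl2, Mybpc3) were well above background in every library, with a summed level of 59000 to 78900 CPM in GFP, 55100 to 72300 CPM in YAP6SA and 35100 to 48300 CPM in YAP5SA. Between YAP5SA and GFP the log2 fold change was negative for all 8 and Ryr2 passed the test (-0.81, adjusted p = 0.0455). The call of Ryr2 was lost in 4 of the 6 fits that left out 1 library, with -0.43 without GFP replicate 2, -0.40 without YAP5SA replicate 2 and -0.81 without either YAP6SA library, and also without the replicate block (the batch term of the fit, adjusted p = 0.074). The fibroblast list gave 716 to 1050 CPM in GFP and 720 to 1140 CPM in YAP5SA, and the endothelial list gave 214 to 247 and 233 to 269 CPM, and no gene of either list was called. In the mural, macrophage and neuronal lists Myh11, C1qa and Dbh were called higher and Abcc9 lower in YAP5SA, and all 4 calls were lost without GFP replicate 2 (0.73, 1.11, 0.91 and -0.51). Without the replicate block those of Myh11, C1qa and Dbh were lost too (adjusted p = 0.185, 0.14 and 0.0537). Th, a gene expressed in sympathetic neurons, was at 0 in every library, and no erythroid gene was called. In these bulk samples fewer cells of a type and less RNA per cell cannot be told apart.

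Promoter windows stood in the RefSeq table (GRCm38.p6) for 6 of the 9 members, and Adra1a, Adcy6 and Pde3a had none there. The 250 bases before the start are shown for Adrb1 and Adcy5, which fell in YAP5SA, and for Chrm2, whose value had the opposite sign without passing the test. Capitals mark TGACG, the short form of the cAMP response element. The 3 windows lie at chr19:56721867-56722116, chr16:35154614-35154863 and chr6:36387834-36388083, all on the plus strand.
Adrb1: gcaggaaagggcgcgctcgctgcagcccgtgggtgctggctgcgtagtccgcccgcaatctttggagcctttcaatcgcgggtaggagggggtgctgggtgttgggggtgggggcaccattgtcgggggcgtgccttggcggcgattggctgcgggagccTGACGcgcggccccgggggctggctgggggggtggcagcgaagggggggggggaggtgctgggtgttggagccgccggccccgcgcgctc
Adcy5: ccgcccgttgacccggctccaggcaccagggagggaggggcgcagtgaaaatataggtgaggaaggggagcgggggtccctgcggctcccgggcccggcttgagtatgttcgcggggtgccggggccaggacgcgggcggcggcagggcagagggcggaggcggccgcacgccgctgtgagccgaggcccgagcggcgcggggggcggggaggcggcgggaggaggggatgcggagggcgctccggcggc
Chrm2: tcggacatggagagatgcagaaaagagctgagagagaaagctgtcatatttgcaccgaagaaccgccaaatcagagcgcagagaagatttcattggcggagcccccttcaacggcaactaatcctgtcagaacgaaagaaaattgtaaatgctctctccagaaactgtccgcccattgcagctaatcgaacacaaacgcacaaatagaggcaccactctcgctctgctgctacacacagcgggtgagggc

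Letters were searched on both strands for the TEAD core GGAATG, the full cAMP response element TGACGTCA and its short form TGACG, which lies within the full element. None of the 10 windows of the 6 members held GGAATG, which 12.6% of all 32851 windows of this length hold. TGACGTCA was also in none of the 10, against 1.55% of all windows. The short form was in the Adrb1 window, 86 to 90 bases before the RefSeq start, and in 3 of the 4 windows of Gnas, against 17.8% of all windows. Of these 3 Gnas windows 2 overlap and hold the same match. The RefSeq start of Adrb1 lies upstream of the gene start, chr19:56722199, in the annotation used to name the genes. The Adrb1 and Adcy5 windows were 74% and 78% GC, the Chrm2 window was 50% GC, and the median of all windows was 52.4%. A missing match says only that these letters are not in this window.

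Levels are given as TMM-scaled CPM (gene counts scaled to a common library total), which serve for one gene across libraries, and as RPKM, CPM per kilobase of exon, where genes are compared. In GFP the order by mean RPKM was Adcy6 at 137, Adcy5 at 34.9, Adrb1 at 13.3, Adra1b at 9.83, Chrm2 at 8.52, Pde3a at 4.75, Pde4d at 3.94 and Adra1a at 0.0142. Gnas is left out of this order because its counts miss most bases of the Gs alpha mRNA. The ranges of the 2 GFP libraries overlapped between Adra1b and Chrm2 and between Pde3a and Pde4d, so neither pair was ordered beyond its spread. Adcy6 stood above 98.5% of all tested genes, Adcy5 above 90.3%, Adrb1 above 71.6%, Pde3a above 45.3% and Pde4d above 40.4%.

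**Figure D1:**
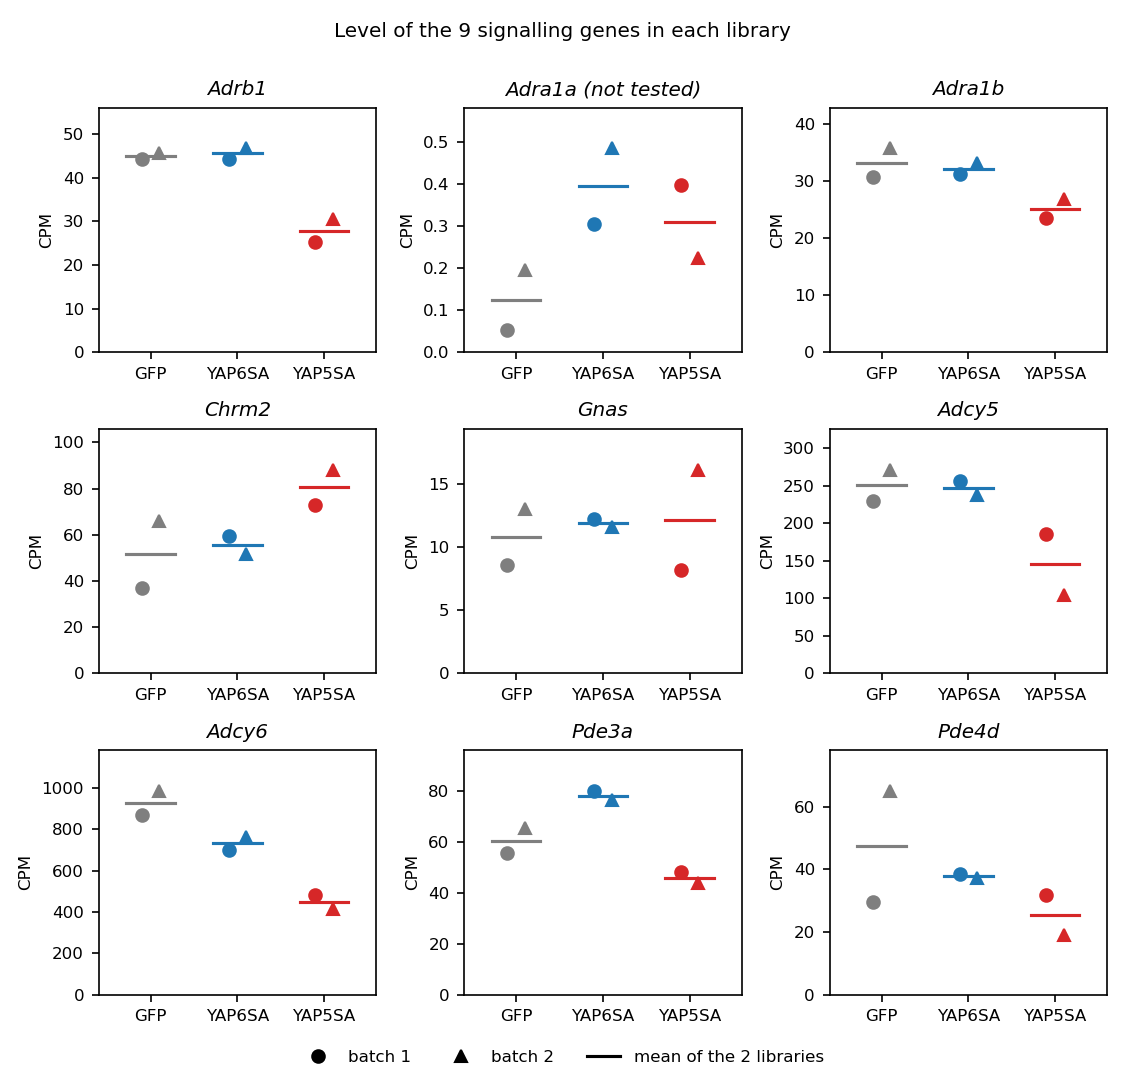
Level of each of the 9 genes in TMM-scaled CPM (vertical axes from 0, 1 scale per gene) in GFP, YAP6SA and YAP5SA libraries, with circles for batch 1, triangles for batch 2 and bars for the mean of the 2 libraries. Both YAP5SA libraries lie below all 4 others for Adrb1, Adra1b, Adcy5, Adcy6 and Pde3a and above all 4 others for Chrm2, and Adra1a stays below 0.5 CPM.

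Among the receptors, Adrb1 (ENSMUSG00000035283), the beta-1 receptor through which sympathetic nerves drive the CM, had 44.2 and 45.5 CPM in GFP, 44.4 and 46.7 CPM in YAP6SA, and 25.2 and 30.5 CPM in YAP5SA. The 4 GFP and YAP6SA libraries lay within a narrow band and both YAP5SA libraries lay below it. The means were 44.9 ± 0.92 in GFP, 45.5 ± 1.64 in YAP6SA and 27.9 ± 3.71 in YAP5SA (CPM, SD, n = 2). The log2 fold change was -0.69 (SE 0.168, adjusted p = 0.0173) for YAP5SA against GFP and -0.71 (SE 0.168, adjusted p = 0.0207) against YAP6SA. Between YAP6SA and GFP it was 0.020 (SE 0.165, adjusted p = 0.995). Within batch 1 the log2 ratio of YAP5SA to GFP was -0.81 and within batch 2 it was -0.58. The call against GFP was lost without GFP replicate 1 (-0.62) or GFP replicate 2 (-0.76), and the call against YAP6SA without YAP6SA replicate 1 (-0.67) or replicate 2 (-0.75). The gene lies at chr19:56722199-56733113 (plus strand, GRCm38) and no other gene overlaps it.

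Chrm2 (ENSMUSG00000045613), the M2 muscarinic receptor of vagal slowing, had 37.2 and 66.0 CPM in GFP, 59.7 and 51.7 CPM in YAP6SA, and 73.0 and 88.3 CPM in YAP5SA. Both YAP5SA libraries were above the other 4, but the GFP libraries were nearly as far apart as the groups. The log2 fold change of YAP5SA against GFP was 0.67 (SE 0.22, adjusted p = 0.0539) and against YAP6SA it was 0.51 (SE 0.219, adjusted p = 0.147), so neither was called. Against GFP, 7 of the 9 other fits of all libraries or of 4 libraries put it past the threshold, with adjusted p from 0.004 to 0.115. The value was 0.32 without GFP replicate 1, the lowest library, and 1.10 without GFP replicate 2. Between YAP6SA and GFP the value was 0.16 (SE 0.221, adjusted p = 0.947), with 0.68 in batch 1 and -0.35 in batch 2.

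Chrm2 is a gene of atrial as well as ventricular muscle. The list of 6 atrial markers (Myl7, Myl4, Sln, Nppa, Nr2f2, Tbx5) summed to 420 to 500 CPM in GFP, 502 to 559 CPM in YAP6SA and 706 to 716 CPM in YAP5SA. Of the 6, Myl7, Myl4 and Nppa rose in YAP5SA against GFP (log2 fold change 0.72, 0.74 and 1.18, adjusted p = 0.0189, 0.00905 and 0.00744), and 61.5% of the exon bases of Nppa are shared with another gene. Sln, Nr2f2 and Tbx5 were not called (0.29, -0.55 and -0.12, adjusted p = 0.425, 0.2 and 0.662). All 3 calls were lost without GFP replicate 2 (0.46, 0.69 and 1.15). Their part in the Chrm2 values was not tested. The exons of Chrm2 (chr6:36388084-36528414, plus strand, GRCm38) share 142 bases, 2.35% of its exon length, with 9330158H04Rik, a long noncoding RNA on the opposite strand. That RNA had 25.6 and 39.2 CPM in GFP, 20.4 and 25.6 CPM in YAP6SA, and 66.2 and 95.1 CPM in YAP5SA, and it rose in YAP5SA (log2 fold change 1.32, SE 0.163, adjusted p = 0.000835). The libraries do not keep strand, and reads in the shared bases are ambiguous between both genes.

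Adra1b (ENSMUSG00000050541), the alpha-1B receptor, had 30.7 and 35.8 CPM in GFP, 31.3 and 33.2 CPM in YAP6SA, and 23.5 and 26.9 CPM in YAP5SA. Its YAP5SA libraries were the lowest 2 of the 6. The log2 fold change was -0.40 (SE 0.179, adjusted p = 0.138) against GFP and -0.36 (SE 0.179, adjusted p = 0.207) against YAP6SA, and neither was called in any of the 9 other fits. YAP6SA and GFP differed by -0.041 (SE 0.177, adjusted p = 0.983). Adra1a (ENSMUSG00000045875), the alpha-1A receptor, had 1 and 3 counts in GFP, 6 and 8 in YAP6SA, and 6 and 4 in YAP5SA. With 1 to 8 counts, near the 3 counts that a count of 0 allows, the gene did not pass the filter and was not tested.

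The shares of the receptors shifted with these values. Of the summed RPKM of the 14 adrenergic and muscarinic receptor genes, Adrb1 made up 43.5% and 36.8% in GFP, 39.0% and 41.0% in YAP6SA, and 26.7% in each YAP5SA library. Chrm2 made up 20.4% and 29.8% in GFP, 29.3% and 25.4% in YAP6SA, and 43.1% in each YAP5SA library. Adrb1 was thus the larger of this pair in all 4 GFP and YAP6SA libraries and the smaller in both YAP5SA libraries, at 55.2% to 68.0% of their sum in the 4 and 38.2% in each of the 2. The sum of all 14 was 33.3 RPKM on average in GFP and 30.9 RPKM in YAP5SA. The order of Adrb1 and Chrm2 rests on the division by annotated exon length. By CPM, Chrm2 was already above Adrb1 in GFP replicate 2 (66.0 against 45.5). The same held in both YAP6SA libraries (59.7 and 51.7 against 44.4 and 46.7). No test was run on these shares, and Chrm2 itself was not called.

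**Figure D2:**
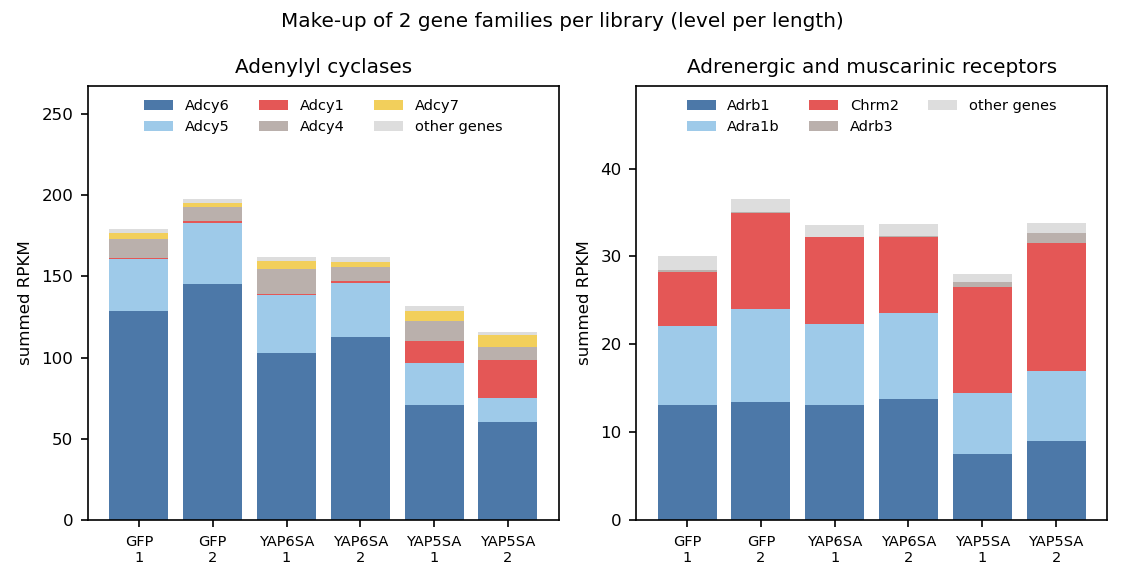
Summed RPKM (vertical axes, from 0) of the 10 adenylyl cyclase genes and of the 14 adrenergic and muscarinic receptor genes in each library, divided by gene. Adcy6 narrows from 71.8% and 73.4% of the cyclase sum in GFP to 53.6% and 52.3% in YAP5SA, where Adcy1 takes 10.3% and 19.9%, and Chrm2 is the widest receptor segment in YAP5SA.

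Of the other 10 receptor genes only Adrb3, the beta-3 receptor, passed the filter. It had 12 and 3 counts in GFP, 3 and 6 in YAP6SA, and 29 and 66 in YAP5SA. The YAP5SA counts alone took it past the filter, so it was tested only because of the group where it was high. The fit that asked for at least 10 counts in every library did not test it. Adrb3 rose against GFP (log2 fold change 2.62, SE 0.715, adjusted p = 0.0275), but 24.9% of its exon bases are shared with other genes. The call was lost without GFP replicate 2 (1.56) or YAP5SA replicate 2 (2.02). At its highest the gene took 3.24% of the receptor sum, well under Adrb1.

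The 2 cyclases are the main cAMP-producing enzymes of cardiac muscle, and both are inhibited by calcium and by Gi. Adcy6 (ENSMUSG00000022994) had 871 and 986 CPM in GFP, 698 and 764 CPM in YAP6SA, and 480 and 414 CPM in YAP5SA. The 3 groups did not overlap, with YAP6SA between the others. The means were 928 ± 81.2 in GFP, 731 ± 46.6 in YAP6SA and 446 ± 46.7 in YAP5SA (CPM, SD, n = 2). YAP5SA fell by 1.05 on the log2 scale against GFP (SE 0.182, adjusted p = 0.00408) and by 0.71 against YAP6SA (SE 0.181, adjusted p = 0.0282). Between YAP6SA and GFP the log2 fold change was -0.34 (SE 0.18, unadjusted p = 0.0841, adjusted p = 0.849), so the middle position of YAP6SA was not called. Its batches gave -0.32 and -0.37 in that comparison. The YAP5SA call against GFP was lost without GFP replicate 2 (-0.94), and the call against YAP6SA without YAP6SA replicate 1 (-0.78), YAP6SA replicate 2 (-0.64) or YAP5SA replicate 2 (-0.52). An antisense RNA, Gm29331, shares 8.92% of the exon bases of Adcy6, and 100% of its own exon bases lie there. Reads in shared bases are ambiguous and were not counted for either gene. The 0 counts of Gm29331 in every library therefore do not measure its level.

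Adcy5 (ENSMUSG00000022840) had 230 and 271 CPM in GFP, 256 and 238 CPM in YAP6SA, and 186 and 105 CPM in YAP5SA. Both YAP5SA libraries lay below the other 4, and they differed from each other more than the libraries of any other group did. Against GFP the log2 fold change was -0.83 (SE 0.229, adjusted p = 0.029) and against YAP6SA -0.79 (SE 0.227, adjusted p = 0.0436). YAP6SA and GFP differed by -0.034 (SE 0.224, adjusted p = 0.991). Without YAP5SA replicate 2 the values were -0.38 and -0.36 and both calls were lost. The call against GFP was also lost without GFP replicate 2 (-0.47), and the call against YAP6SA also without YAP6SA replicate 1 (-0.89) or YAP6SA replicate 2 (-0.71). Without the batch term, which is the replicate block, neither call held (adjusted p = 0.0662 and 0.0941). The CM markers given above had lower summed levels in the same libraries as the cyclases and Adrb1, and their part in these results was not tested.

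Among the 8 other cyclase genes, 5 passed the filter. Of these, 2 rose in YAP5SA against GFP and 0 fell, beside 12.8% and 9.18% of all genes. Adcy1, a cyclase stimulated by calcium and calmodulin, had 7.46 and 13.6 CPM in GFP, 9.62 and 14.4 CPM in YAP6SA, and 171 and 290 CPM in YAP5SA. The YAP5SA libraries were more than 10 times above any other. Adcy1 gave a log2 fold change of 4.46 (SE 0.171, adjusted p = 2.44e-06) against GFP and 4.24 (adjusted p = 3.48e-06) against YAP6SA, and both calls held in each of the 6 fits that left out 1 library. Adcy7, a cyclase of many cell types, rose by a log2 fold change of 1.05 (SE 0.219, adjusted p = 0.00951), a call lost without GFP replicate 2 (0.90). The sum of all 10 cyclases was 179 and 198 RPKM in GFP, 162 RPKM in each YAP6SA library, and 132 and 116 RPKM in YAP5SA. Adcy6 remained the most abundant cyclase in every library.

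Phosphodiesterase 3A, the target of inotropic drugs such as milrinone, was the member with the clearest difference between the 2 YAP forms. Pde3a (ENSMUSG00000041741) had 55.6 and 65.4 CPM in GFP, 80.2 and 76.4 CPM in YAP6SA, and 48.2 and 43.9 CPM in YAP5SA. GFP lay between the others without overlap, above YAP5SA and below YAP6SA. YAP5SA fell by 0.77 on the log2 scale against YAP6SA (SE 0.159, adjusted p = 0.0122), with -0.74 in batch 1 and -0.80 in batch 2. Against GFP neither form was called, with -0.39 (SE 0.159, adjusted p = 0.104) for YAP5SA and 0.37 (SE 0.158, unadjusted p = 0.0399, adjusted p = 0.822) for YAP6SA. The call between the YAP forms was lost without YAP6SA replicate 1 (-0.71) or YAP6SA replicate 2 (-0.83). An antisense RNA, Gm28523, shares 5.82% of the exon bases of Pde3a, and it fell against GFP with a log2 fold change of -1.26 (SE 0.366, adjusted p = 0.0348) at 2.30 to 9.78 CPM. Its call was lost without GFP replicate 1 (-1.15), GFP replicate 2 (-1.35) or YAP5SA replicate 2 (-0.93), and without the replicate block (adjusted p = 0.0674).

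Pde4d (ENSMUSG00000021699), a cAMP-specific phosphodiesterase found in receptor and ryanodine receptor complexes, had 29.6 and 65.1 CPM in GFP, 38.6 and 37.3 CPM in YAP6SA, and 31.7 and 19.0 CPM in YAP5SA. GFP replicate 2 was the highest of the 6, GFP replicate 1 the second lowest, and the GFP and YAP5SA groups overlapped. The log2 fold change of YAP5SA against GFP was -0.86 (SE 0.354, adjusted p = 0.108), a value that shrank to -0.06 with GFP replicate 2 left out and grew to -1.58 with GFP replicate 1 left out. YAP5SA and YAP6SA differed by -0.57 (SE 0.345, adjusted p = 0.294) and YAP6SA and GFP by -0.29 (SE 0.344, adjusted p = 0.931). No exon of another gene overlaps its exons.

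Of 14 other phosphodiesterase genes tested, 1 rose and 2 fell in YAP5SA against GFP, beside 12.8% and 9.18% of all genes. Pde4a, the most abundant PDE4 gene in GFP, had 214 and 264 CPM in GFP, 160 and 229 CPM in YAP6SA, and 119 and 72.8 CPM in YAP5SA (log2 fold change -1.31, SE 0.258, adjusted p = 0.00732). Pde4b, whose product is a part of the L-type calcium channel complex, had 101 and 107 CPM in GFP, 165 and 167 CPM in YAP6SA, and 161 and 183 CPM in YAP5SA. It rose in YAP5SA (log2 fold change 0.73, SE 0.144, adjusted p = 0.00742), and YAP6SA gave a value close by at 0.68 without passing the test (adjusted p = 0.277). Of the PDE4 sum in RPKM, Pde4a held 61.6% and 62.6% in GFP and 41.0% and 30.9% in YAP5SA, and Pde4b held 21.1% and 18.3% in GFP and 40.1% and 56.4% in YAP5SA. Pde1c fell too (log2 fold change -0.97, SE 0.229, adjusted p = 0.0155). The call of Pde4a held in each fit that left out 1 library. That of Pde4b was lost without GFP replicate 1 (0.75) or GFP replicate 2 (0.72), and that of Pde1c without GFP replicate 2 (-0.67) or YAP5SA replicate 2 (-0.50).

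Gnas (ENSMUSG00000027523) encodes the alpha subunit of Gs together with other proteins from earlier promoters. It had 8.62 and 13.0 CPM in GFP, 12.2 and 11.6 CPM in YAP6SA, and 8.21 and 16.1 CPM in YAP5SA. The libraries of the 3 groups overlapped fully, and YAP5SA held both the lowest and the highest. The log2 fold change was 0.15 (SE 0.295, adjusted p = 0.756) for YAP5SA against GFP, 0.19 (SE 0.295, adjusted p = 0.947) for YAP6SA against GFP, and -0.044 (SE 0.296, adjusted p = 0.939) for YAP5SA against YAP6SA. These counts, 124 to 288 per library, do not measure the Gs alpha mRNA. A predicted gene on the opposite strand, Gm20721, has exons that lie over 84.7%, 80.4% and 85.4% of the 3 Gs alpha transcripts (Gnas-206, Gnas-207 and Gnas-208), and Gm20721 itself had 0 to 6 counts. Reads from bases shared by 2 genes are ambiguous in a library without strand and are not in the gene counts. Gnas therefore cannot be compared in level with the other members.

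**Figure D3:**
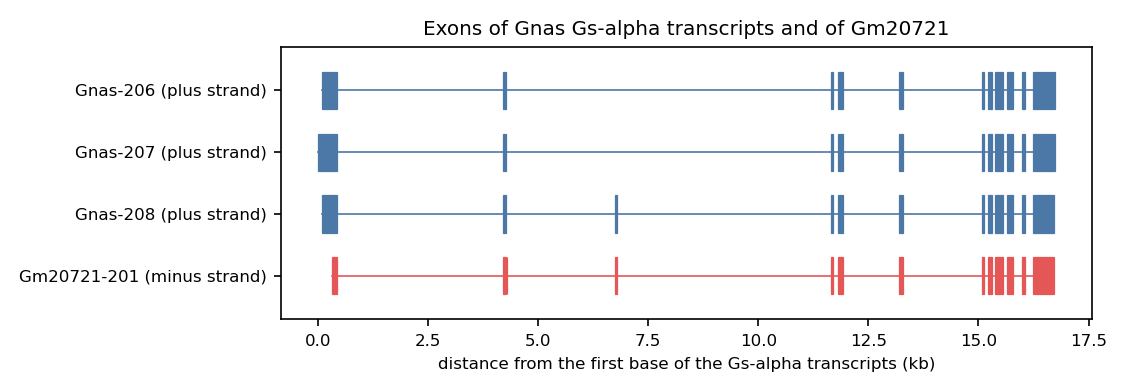
Exons (boxes, to scale) of the 3 Gs alpha transcripts of Gnas and of Gm20721 on the opposite strand, by distance in kb from the first base of the Gs alpha transcripts. The exons of Gm20721 run from within the first Gs alpha exon to the last and lie over 80.4% to 85.4% of the transcript bases. The start of the first exon is not covered.

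Counted over the members, YAP6SA against GFP gave 0 of 8 higher and 0 of 8 lower, beside a background of 0.045% higher and 0% lower among all tested genes. At an unadjusted p under 0.05 it gave 1 of 8, Pde3a, beside 5.93% of all genes, and DESeq2, the edgeR likelihood ratio test and limma-voom also called 0. YAP5SA against GFP gave 3 of 8 lower beside 9.18% of all genes, and 0 of 8 higher beside 12.8%. YAP5SA against YAP6SA gave 4 of 8 lower beside 5.68%, and 0 of 8 higher beside 9%. Both libraries lay outside the range of the other group for 1 member higher and 1 lower in YAP6SA against GFP (Pde3a and Adcy6, beside 17.3% and 17% of all genes), for 1 higher and 5 lower in YAP5SA against GFP (beside 31.2% and 29.7%) and for 1 higher and 6 lower in YAP5SA against YAP6SA (beside 28.6% and 28.9%). The median log2 fold change of the 8 was -0.007, -0.545 and -0.641 in the 3 comparisons, and the medians of all tested genes were 0.0018, -0.0031 and -0.0125. The 8 CM markers had medians of -0.101, -0.756 and -0.563 in the same comparisons, and their relation to the member values was not tested. The comparisons share libraries, so these counts are not independent of each other. The counts and medians of the members include Gnas, whose counted reads do not measure the Gs alpha mRNA. A joint test of both group terms called Adrb1, Adcy6 and Pde3a (adjusted p = 0.0257, 0.00996 and 0.023), 3 of 8 beside 17.6% of all genes, and gave Adcy5 an adjusted p of 0.0501.

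**Figure D4:**
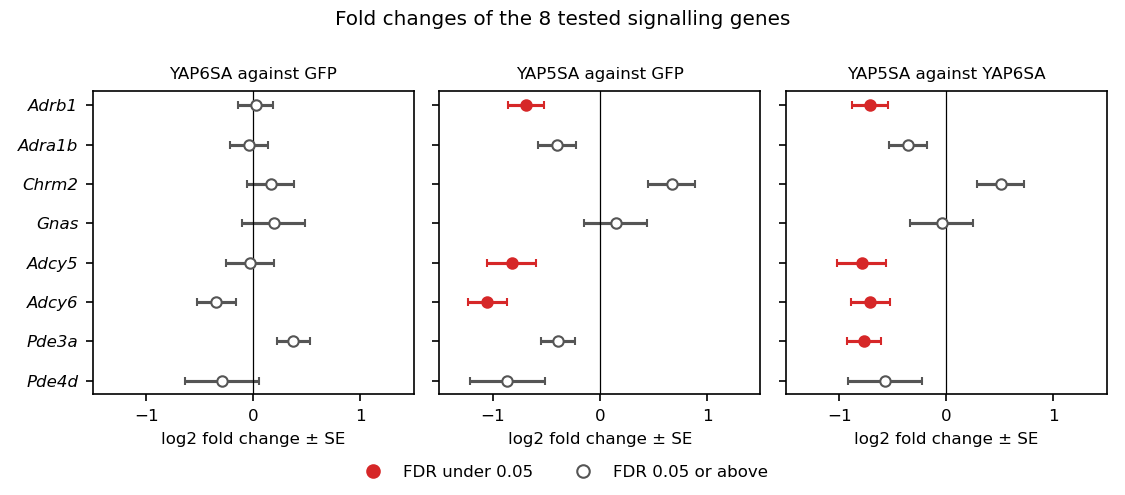
Log2 fold change with its standard error (horizontal axes) of the 8 tested members in the 3 comparisons, filled where the adjusted p was under 0.05. YAP6SA against GFP has no filled point, and the filled points of the other panels (Adrb1, Adcy5, Adcy6 and, against YAP6SA, Pde3a) all lie between -0.69 and -1.05.

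The genes whose pattern over the 6 libraries was most like that of Adcy6, among 13322 others, were Snx21 (Pearson r = 0.999), the long noncoding RNA D930016D06Rik (0.996) and Xirp2 (0.996), an actin-binding protein of the intercalated disc. Xirp2 had 182 and 188 CPM in GFP, 141 and 150 CPM in YAP6SA, and 94.6 and 84.7 CPM in YAP5SA. Correlations over 6 libraries that fall into 3 groups are given as a description only.

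Beyond the members, 103 further genes of these pathways were listed by role and 83 passed the filter. YAP6SA against GFP called 0 of them. YAP5SA against GFP called 14 higher and 10 lower beside 12.8% and 9.18% of all genes. Against YAP6SA it called 9 higher and 8 lower beside 9% and 5.68%. The counts by role below have these same shares of all genes beside them. Among those called higher against GFP, Adrb3 and Akap5 were below the filter in GFP itself. Of the 24 called against GFP, all named here, 6 (Gng12, Adcy1, Pde4a, Akap1, Grk5 and Arrb1) kept it in each of the 6 fits that left out 1 library. Without the replicate block Gnal, Akap6, Akap9, Rgs2, Prkcd and Prkce lost the call (adjusted p = 0.058, 0.0575, 0.0766, 0.125, 0.0542 and 0.0538).

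**Figure D5:**
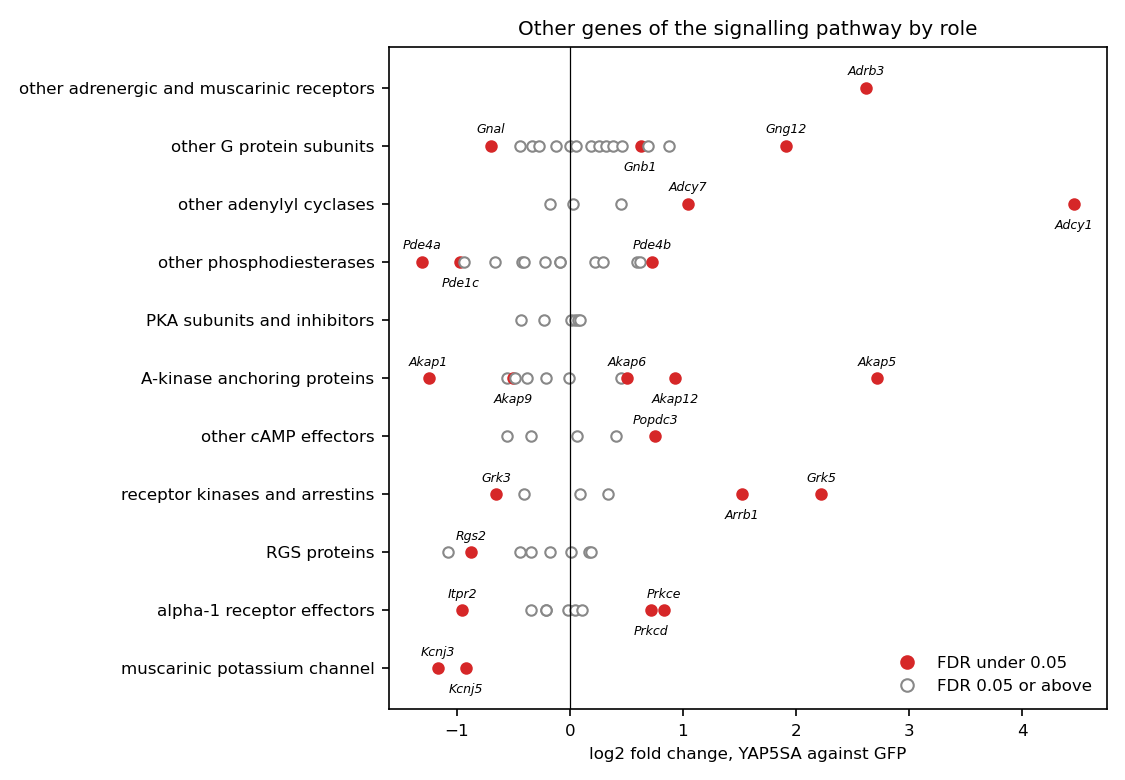
Log2 fold change between YAP5SA and GFP (horizontal axis) of the 83 other pathway genes tested, 1 row per role, filled and named where the adjusted p was under 0.05. Adcy1 lies farthest to the right at 4.46, all 6 tested PKA genes are open points, and both subunits of the muscarinic potassium channel are filled below 0.

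Of 6 genes of receptor kinases and arrestins, which desensitise receptors, 2 rose and 1 fell in YAP5SA against GFP. The shares of all genes were 12.8% and 9.18%. Grk5, a kinase that phosphorylates activated receptors, had 10.8 and 15.7 CPM in GFP, 11.9 and 12.1 CPM in YAP6SA, and 44.2 and 82.1 CPM in YAP5SA (log2 fold change 2.22 against GFP, SE 0.235, adjusted p = 0.000432). Arrb1, beta-arrestin 1, which uncouples phosphorylated receptors from G proteins, rose as well (1.52, SE 0.274, adjusted p = 0.00501). Grk3, a kinase recruited by G beta-gamma, went down (-0.65, SE 0.172, adjusted p = 0.0247), a call lost without GFP replicate 2 (-0.44) or YAP5SA replicate 2 (-0.43). All 4 Grk5 values in GFP and YAP6SA lay below both YAP5SA values.

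Both subunits of the channel that M2 receptors open through G beta-gamma fell, while the value of Chrm2 itself was positive and not called. Kcnj5 had 38.0 and 47.9 CPM in GFP, 38.1 and 44.7 CPM in YAP6SA, and 25.8 and 19.5 CPM in YAP5SA (log2 fold change -0.92 against GFP, SE 0.213, adjusted p = 0.0146). Kcnj3 fell by 1.17 (SE 0.326, adjusted p = 0.0298), and 31.1% of its exon bases are shared with another gene. Without GFP replicate 2 the values were -0.71 and -0.64, and without YAP5SA replicate 2 they were -0.57 and -0.52, and no call held in these fits. Rgs2, which shortens Gq signals, had 187 and 89.9 CPM in GFP, 207 and 167 CPM in YAP6SA, and 98.4 and 51.4 CPM in YAP5SA and was the 1 called gene of 8 RGS genes (-0.87, SE 0.192, adjusted p = 0.0118). It lost its call without GFP replicate 1 (-0.63), and its level differed between the batches of each group.

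Of the other G protein subunits 2 of 16 rose and 1 fell in YAP5SA against GFP, beside 12.8% and 9.18% of all genes. Gng12, a gamma subunit, rose by a log2 fold change of 1.91 (SE 0.305, adjusted p = 0.00274), and Gnb1, a beta subunit, by 0.63 (SE 0.162, adjusted p = 0.0222). Gnal, an alpha subunit of the Gs class, fell by 0.70 on the log2 scale (SE 0.214, adjusted p = 0.0427). The calls of Gnb1 and Gnal were lost without GFP replicate 1 (0.66 and -0.39), GFP replicate 2 (0.60 and -0.95) or YAP5SA replicate 2 (0.44 and -0.60).

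Downstream of cAMP, 0 of 6 tested subunit and inhibitor genes of protein kinase A were called in any comparison. Of 11 genes of anchoring proteins, which hold protein kinase A at its targets, 3 rose and 2 fell against GFP. The shares of all genes were 12.8% and 9.18%. Akap1, the anchor of the outer mitochondrial membrane, had 421 and 426 CPM in GFP, 291 and 330 CPM in YAP6SA, and 195 and 162 CPM in YAP5SA (log2 fold change -1.25, SE 0.169, adjusted p = 0.00132). The other that fell was Akap9 (-0.50, adjusted p = 0.0423), named here after its value was seen. Its call was lost in 5 of the 6 fits that left out 1 library (-0.58 to -0.32), with DESeq2 (adjusted p = 0.0555) and with the 4 libraries compared (adjusted p = 0.0703). Akap5, an anchor near beta receptors and calcium channels, rose from 6 and 5 counts in GFP to 21 and 56 in YAP5SA (2.72, SE 0.65, adjusted p = 0.0162), a call lost without GFP replicate 2 (2.39) or YAP5SA replicate 2 (2.11). Akap5 was below the filter in GFP, so it was tested only because of a group where it was higher. The fit that asked for at least 10 counts in every library did not test it. Akap12 (0.93, adjusted p = 0.0316) and Akap6, the anchor of the nuclear envelope (0.51, adjusted p = 0.0341), rose less and lost the call in 4 and 5 of the 6 fits that left out 1 library, at 0.74 to 1.14 and 0.44 to 0.59. Popdc3, a cAMP-binding membrane protein, was the 1 called gene of 5 other effectors against GFP (0.76, SE 0.171, adjusted p = 0.013), a call lost without GFP replicate 2 (0.55). Its relative Bves fell against YAP6SA (-0.67, adjusted p = 0.0141), a call lost without YAP6SA replicate 1 (-0.71) or YAP6SA replicate 2 (-0.63), and without the replicate block (adjusted p = 0.0625).

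On the alpha-1 side, 2 of 9 tested genes rose and 1 fell in YAP5SA against GFP, beside 12.8% and 9.18% of all genes. Prkcd and Prkce, protein kinase C isoforms activated by diacylglycerol, rose by log2 fold changes of 0.72 (SE 0.168, adjusted p = 0.0145) and 0.83 (SE 0.252, adjusted p = 0.0407). Itpr2, the main inositol trisphosphate receptor of CMs, fell by 0.95 (SE 0.232, adjusted p = 0.0174). The call of Itpr2 was lost without GFP replicate 2 (-0.51) or YAP5SA replicate 2 (-0.54), that of Prkcd without GFP replicate 1 (0.76), GFP replicate 2 (0.69) or YAP5SA replicate 2 (0.51), and that of Prkce in 5 of the 6 such fits (0.50 to 1.02).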

How the data were processed

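Reads of 6 non-directional, poly-A enriched libraries of PCM1-bound nuclei were mapped by the authors with STAR to mm10 (GRCm38) with an Ensembl annotation, and the deposited values are raw counts per gene, without ambiguous or multimapping reads (5.79% to 6.31% ambiguous). The version of STAR was not given in the sources used here. Genes were named from GENCODE M21. Groups and batches came from the labels, and the batch number equals the replicate number. The members and the lists were chosen with earlier results of these data known.

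Genes with a median log2 CPM above 1 in at least 1 group were kept (13323). The whole table was fitted with edgeR 4.0.16 (R 4.3.3), TMM scaling, quasi-likelihood tests, terms for group and batch (the replicate block, as in the study's methods) and 2 residual degrees of freedom, and Benjamini-Hochberg adjusted p under 0.05 was called. SE is the absolute log2 fold change over the square root of F. CPM uses the TMM-scaled total of tested genes, and RPKM divides it by the exon length. The scripts were tested on simulated data. Same-numbered libraries deviated together with correlations of 0.368, 0.0985 and 0.175 between groups. Alternatives were other scalings, filters, tests (limma 3.58.1, DESeq2 1.42.0), thresholds, no batch term, 4 libraries, and each library left out in turn. Outside the members, genes were named when called in at least 1 comparison, at most 4 per list by size of the YAP5SA change. A count of 0 allows up to 3 counts, 0.153 to 0.199 CPM, which covers counting error only. Libraries of a group differed by more than counting error (a chi-square of 30.9 to 49.4 for each degree of freedom), so within a group neither was a copy of the other. Libraries of different groups were not compared in this way, and the value does not show from which hearts they came.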

Additional observations from a re-analysis of the deposited data

Results flagged for a closer look

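For 5 of the 8 tested members the 2 batches moved in opposite directions under the same contrast, and this difference between batches was not tested. The share of all tested genes with such opposite signs is not given here, so 5 of 8 is not a result about the members. In YAP6SA against GFP the log2 ratio in batch 1 and batch 2 was 0.68 and -0.35 for Chrm2, 0.38 and -0.80 for Pde4d, 0.50 and -0.17 for Gnas, 0.16 and -0.19 for Adcy5, and 0.027 and -0.11 for Adra1b. In YAP5SA against GFP it was 0.10 and -1.78 for Pde4d and -0.070 and 0.31 for Gnas. In YAP5SA against YAP6SA it was -0.57 and 0.48 for Gnas. None of these 8 contrasts was called, and GFP replicate 1 was the lowest library for Chrm2 while GFP replicate 2 was the highest for Pde4d.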

How the results depend on the processing

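The number of members called higher in YAP5SA against GFP, 0 as reported, was 1 (Chrm2) with upper quartile scaling, no filter, at least 10 counts in every library, the likelihood ratio test, DESeq2, limma-voom, the 4 libraries compared and a threshold of 0.1. With each library left out in turn it ran from 0 to 1, and the number called lower, 3 as reported, ran from 0 (without GFP replicate 2) to 5 (without YAP5SA replicate 1). At a threshold of 0.01 the number called lower was 1 (Adcy6) against GFP and 0 against YAP6SA. Against YAP6SA the number called lower, 4 as reported, ran from 0 (without YAP6SA replicate 1 or YAP6SA replicate 2) to 5 (without YAP5SA replicate 1), with 2 without YAP5SA replicate 2, and the number called higher ran from 0 to 1 (without YAP6SA replicate 1). Fits of 5 libraries had 1 residual degree of freedom and took the lone library of a group to vary like the others. Without the replicate block 2 members were called lower against GFP and 3 against YAP6SA, Adcy5 being lost in both, and the block changed no other call of a member. Pde4d was called lower against GFP with no filter (adjusted p = 0.000933), in none of the 8 other fits of 6 or 4 libraries, and in 2 of the 6 that left out 1 library (without GFP replicate 1 or YAP5SA replicate 1).

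Among the members, signs turned only in values that were not called. Over the fits that left out 1 library, the log2 fold change of YAP6SA against GFP ran from -0.043 to 0.084 for Adrb1, -0.10 to 0.021 for Adra1b, -0.23 to 0.57 for Chrm2, -0.26 to 0.60 for Gnas, -0.36 to 0.35 for Adcy5 and -0.97 to 0.56 for Pde4d. In YAP5SA against GFP it ran from -0.24 to 0.48 for Gnas. In YAP5SA against YAP6SA it ran from -0.47 to 0.39 for Gnas and from -1.29 to 0.0031 for Pde4d, and Gnas was 0.017 with limma-voom and 0.037 without the replicate block.

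Among all genes, the main fit used here called 6 higher and 0 lower in YAP6SA against GFP. The study itself reported more genes for YAP6SA in both directions at an FDR under 0.05. The calls here were 109 and 36 with no filter, 54 and 28 with the likelihood ratio test, and 40 and 15 with DESeq2. They were 198 and 78 with the 4 libraries compared, and 0 and 0 without the replicate block. Without the block 759 in place of 1223 were lower in YAP5SA against GFP and 301 in place of 757 against YAP6SA. The likelihood ratio test and no filter gave 1155 and 1161 lower against YAP6SA. Among the other pathway genes, YAP6SA against GFP called 1 (Pde4b) with no filter or the likelihood ratio test and 2 (Pde4b and Popdc2) with the 4 libraries compared or without either YAP5SA library. With each library left out, YAP5SA against GFP called 4 to 20 of them higher and 3 to 18 lower, both fewest without GFP replicate 2, and YAP5SA against YAP6SA called 2 to 14 higher and 1 to 15 lower, both fewest without YAP6SA replicate 2. At a threshold of 0.01 it called 6 higher and 2 lower (3 and 1 against YAP6SA), and at 0.1 it called 16 lower. Of the 24 called against GFP, 17 kept the call in each other fit of 6 or 4 libraries that tested them. With the 4 libraries compared, Akap6, Akap9, Akap12 and Prkce lost it (adjusted p = 0.0609, 0.0703, 0.0554 and 0.054). Without the replicate block 4 in place of 8 were lower in YAP5SA against YAP6SA.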
